A study of Mus musculus with 24 samples.

Results

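The gastrocnemius of uncasted mice was described here as a resting muscle, from the 8 libraries of the uncasted control group out of 24 in the study. The members were chosen by the label that marks a library as a control without immobilization, and that rule uses no measured value. The group had 8 male C57BL/6J mice that were 10 weeks old on arrival and 12 weeks old in the labels, with 1 library for each, numbered here as in the labels; the muscle was frozen before extraction. These mice wore no cast and received sterilized water by intraperitoneal injection 2 times a day for 8 days, and the muscle was taken under isoflurane anaesthesia. The other 16 libraries, from mice with casted hindlimbs given water or the peptide MOTS-c, were not used here. The values are TPM, in which each gene's reads are divided by its transcript length and the library is scaled to a fixed total that is the same for all. Levels of different genes are therefore compared per length within a library, and every value below is a share of that total. Errors are SD over the 8 mice unless stated otherwise, and no group comparison was made.

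The gastrocnemius is a calf muscle built mainly of fast-twitch fibres. A fibre contracts when calcium released from its internal store binds troponin on the thin filament and lets myosin heads pull on actin; the calcium is then pumped back. Most proteins of this cycle, and most enzymes that supply its ATP, exist as families of paralogs, of which fast, slow, cardiac and non-muscle cells use different members. A whole-muscle library also holds RNA of vessels, connective tissue, nerve sheath, fat and blood, and in such bulk samples fewer cells of a type and less RNA per cell cannot be told apart.

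The libraries held 19832 to 21008 genes with a TPM above 0, and 10995 genes had a TPM of at least 1 in all 8. Across the 7614 genes with a mean TPM of at least 5, log2(TPM + 1) of any 2 libraries correlated across genes with r between 0.978 and 0.991, and at most 0.328% of genes had equal values in a pair of libraries. The depth of the libraries is unknown, since TPM keep no read total. The libraries of mice 1 to 4 stood apart from those of mice 5 to 8 in the annotated rRNA gene CT010467.1, at 6966 to 8035 TPM against 1364 to 2829 TPM. Of the 7614 genes, 5.48% did not overlap between these sets, in either direction. The labels name no batch, so the values of both sets are given where they touch a result. Mice 1 and 2 stood apart in many genes of the stress and immediate early lists, mice 6 to 8 in tendon and matrix genes, and mouse 8 on the first principal component; these are described at the end.

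The 5 genes given as markers of this tissue were all abundant. Myh4, the myosin heavy chain of type IIb fibres (chromosome 11, 67238029 to 67260446 on the plus strand of GRCm38), stood at 15925 ± 2222 TPM. Myh1, the heavy chain of type IIx fibres, stood at 709 ± 116 TPM. Acta1, skeletal alpha-actin, stood at 23106 ± 894 TPM and Ckm, the muscle creatine kinase that buffers ATP, at 23227 ± 615 TPM. Pvalb, the calcium buffer parvalbumin, stood at 8279 ± 515 TPM. All 12 genes of the fast-fibre list had a TPM above 1 in every mouse, with a summed level of 154102 to 166287 TPM. That sum includes Acta1 and Ckm, named above as skeletal muscle genes, so it is not a level of fast fibres alone.

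The transcriptome was concentrated in few genes. The 10 entries of highest mean TPM held 35.4% ± 1.06 (SD, n = 8) of the total and the 100 highest held 69.0% ± 0.861. Mitochondrially encoded genes and their nuclear near-copies together held 39.3% ± 1.41. After these were set aside, the 10 highest nuclear genes held 29.9% ± 0.718 of the nuclear total and the 100 highest 50.8% ± 0.636. Between 2988 and 3368 genes were needed to reach 90% of the nuclear total in a mouse. The 50 genes of the contractile lists alone held 26.8% ± 0.705 of the nuclear total. The 27 genes of the glycolysis and glycogen lists held 4.57% ± 0.0797, and the 11 genes of the calcium store lists held 2.55% ± 0.0743.

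Much of the mitochondrial signal was assigned to nuclear pseudogenes. The single entry of highest mean TPM was the pseudogene Gm10925 on chromosome 1, at 66342 ± 3692 TPM. Its transcript is 100% identical to mt-Atp6, a subunit of ATP synthase, which was itself listed at only 3856 ± 325 TPM. The same held for Gm28661 and mt-Co2, at 38399 and 3666 TPM, and for Gm28437 and mt-Co3, at 37461 and 2935 TPM. For the pair of Gm29216 and mt-Co1 the pseudogene took the smaller part, 21411 TPM against 48067 TPM. Gm28438 and Gm28439, copies of mt-Nd3 and mt-Nd4, took 7506.5 and 6796 TPM, and the other 10 of the 16 near-copies found lay at 142 TPM or below. The division of reads that match both places is not stated, so only the sum over a mitochondrial gene and its copies is read as a level. On that sum mt-Atp6 was highest at 70199 ± 3891 TPM, followed by mt-Co1 at 69483 ± 1985 TPM, and the ranges of this pair overlapped. The other cytochrome oxidase subunits mt-Co2 and mt-Co3 followed at 42078 ± 1798 and 40395 ± 2849 TPM. The subunits of complex I ranged from mt-Nd4 at 34627 TPM to mt-Nd6, the subunit encoded on the opposite strand, at 1647 TPM.

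**Figure D1:**
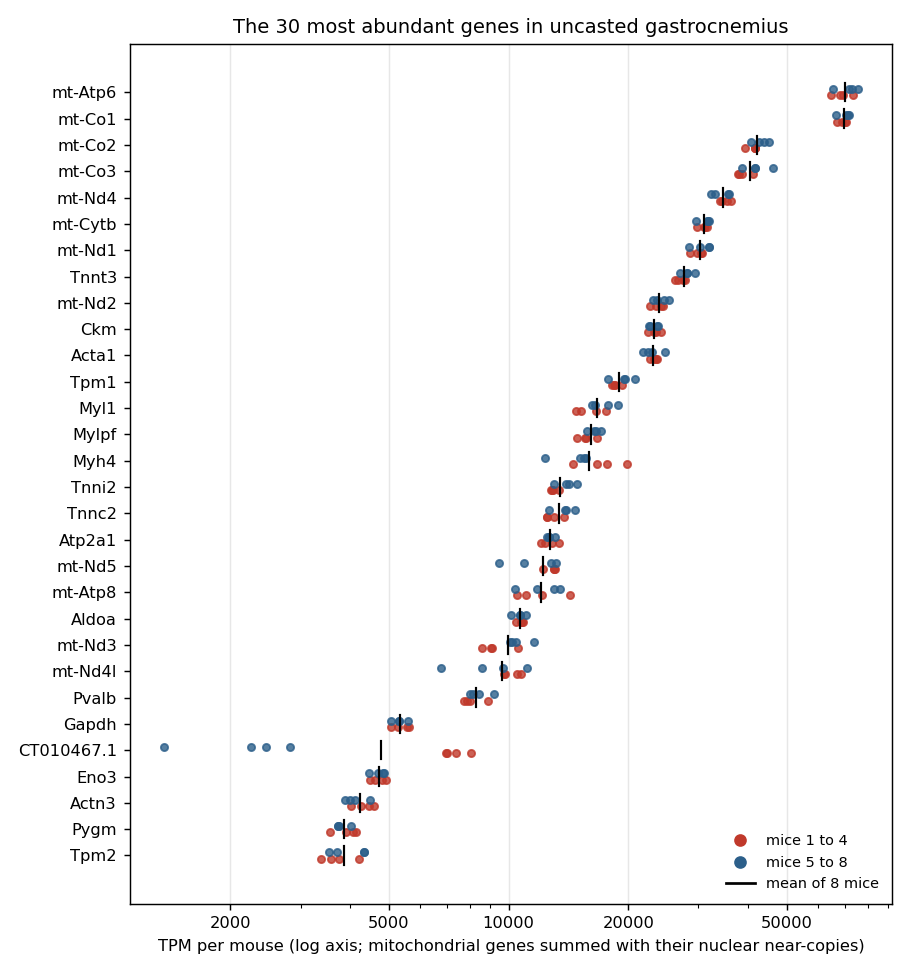
TPM on a log axis for the 30 genes of highest mean, 1 point per mouse, red for mice 1 to 4 and blue for mice 5 to 8, with the mean of 8 mice as a black bar; mitochondrial genes are summed with their near-copies. The widest spread is that of the rRNA gene CT010467.1, whose red points lie between 6966 and 8035 TPM and blue points between 1364 and 2829 TPM.

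The highest nuclear coding gene was not a myosin but Tnnt3, the fast troponin T that anchors the troponin complex to tropomyosin, at 27575 ± 1025 TPM. Its lowest mouse had 26237 TPM and its highest 29493 TPM, so every mouse lay above every value of Ckm (22396 to 24094 TPM). Ckm and Acta1 overlapped in range, at 23227 ± 615 and 23106 ± 894 TPM. Tpm1, the tropomyosin that covers the myosin sites on actin, followed at 19002 ± 971 TPM. Both fast myosin light chains, Myl1 at 16656 ± 1347 TPM and Mylpf at 16073 ± 725 TPM, overlapped in range with Myh4 at 15925 ± 2222 TPM. Below these came Tnni2 and Tnnc2, the fast inhibitory and calcium-binding troponins, at 13492 and 13362 TPM, and Atp2a1, the calcium pump SERCA1, at 12702 TPM. Aldoa, the glycolytic aldolase, was the highest gene of the glycolytic lists at 10681 ± 289.6 TPM. Part of the Tnnt3 locus overlaps Prr33 on the other strand, listed at 108 TPM, and all of Acta1 overlaps Gm20388, listed at 17.3 TPM; no label states whether strand was kept.

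The stretches of 100 bases before the RefSeq starts of a few of these genes are printed because they lie just upstream of the most abundant nuclear transcripts and of a lower-level paralog. Coordinates are on GRCm38.p6, each sequence is written 5′ to 3′ in the direction of the gene, and capitals mark the letters TATAA and, by its name, the CArG box, the core site bound by serum response factor.
Acta1 (chr8:123894776-123894875, minus strand): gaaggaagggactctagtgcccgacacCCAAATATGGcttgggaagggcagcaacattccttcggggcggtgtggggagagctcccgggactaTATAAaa
Actc1 (chr2:114052876-114052975, minus strand): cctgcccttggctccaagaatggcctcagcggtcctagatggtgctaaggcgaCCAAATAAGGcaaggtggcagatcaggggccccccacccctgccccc
Ckm (chr7:19410994-19411093, plus strand): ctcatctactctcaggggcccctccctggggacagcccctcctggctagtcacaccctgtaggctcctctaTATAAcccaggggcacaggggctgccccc
Myh4 (chr11:67237712-67237811, plus strand): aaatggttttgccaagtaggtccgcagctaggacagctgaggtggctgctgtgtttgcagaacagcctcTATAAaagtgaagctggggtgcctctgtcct
Myh1 (chr11:67200002-67200101, plus strand): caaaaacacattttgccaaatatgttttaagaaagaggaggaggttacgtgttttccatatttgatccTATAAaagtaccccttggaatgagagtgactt
Both actin windows hold a CArG box, and only that of Acta1 among the pair also holds TATAA, while the transcript of Acta1 stood 46.7 ± 10.49 times as high as that of Actc1. Myh4 and Myh1 each hold TATAA at nearly the same place, and Myh4 stood 22.7 ± 2.90 times as high as Myh1. Of this pair only the Myh4 window also holds CANNTG, the E-box bound by myogenic factors, which capitals do not mark. With both strands searched, TATAA occurred in 10.2% of 32844 such windows and in 12.5% of the 104 windows of the 75 matched genes among the 100 highest nuclear coding genes. The CArG box occurred in 0.615% of all windows and in 4 (3.85%) of the 104, so the latter share rests on few windows. CANNTG occurred in 34.5% and 33.7%. The window examined for Pvalb, a gene with 2 RefSeq windows, is not printed and holds no TATAA, CArG box or CANNTG. A match describes the letters of the window and is not evidence of binding.

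Among 9 sarcomeric myosin heavy chain genes, Myh4 held 91.9% ± 0.55 of the summed TPM. Its lowest mouse had 12377 TPM, the median mouse 15577 TPM and the highest 19867 TPM, and mice 4 and 8 marked the ends. Myh1 held 4.11% ± 0.52 and Myh2, the heavy chain of type IIa fibres, 3.21% ± 0.30. The ranges of Myh1 (571 to 929.8 TPM) and Myh2 (445 to 654 TPM) overlapped, but Myh1 was the higher of the pair in 8 of 8 mice. Myh7, the heavy chain of slow type I fibres, held 0.67% ± 0.11, at 65.6 to 156 TPM. The embryonic Myh3 and the neonatal Myh8, which mark forming fibres, stood at 0.49 and 2.55 TPM. Myh6, a cardiac chain whose sequence is close to Myh7, stood at 3.29, 5.61, 3.75, 0.55, 0.44, 6.06, 6.45 and 7.70 TPM in mice 1 to 8, near 0 in mice 4 and 5 and above 3 in the others. These genes share long stretches of sequence, and Myh1 overlaps the antisense gene Myhas, listed at 77.6 TPM, so small members of the family are uncertain.

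Fast members of the other contractile families also stood far above their slow relatives. The heavy chain Myh4 stood 140.4 ± 24.9 times as high as the slow Myh7. The fast troponin I gene Tnni2 stood 306 ± 65.3 times as high as the slow Tnni1, the fast Tnnt3 177 ± 30.4 times as high as Tnnt1, and Tnnc2 137 ± 29.9 times as high as Tnnc1. The regulatory light chain Mylpf stood 58.5 ± 5.27 times as high as the slow Myl2, and Myl1 stood 59.4 ± 7.65 times as high as the slow Myl3. In each of these 6 pairs every mouse had more of the fast gene than any mouse had of the slow gene. The ratio of Myh2, the chain of the other oxidative fibre type, to Myh7 was 4.93 ± 1.11. Tnnc1 overlaps Nisch on the other strand, listed at 42.5 TPM.

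**Figure D2:**
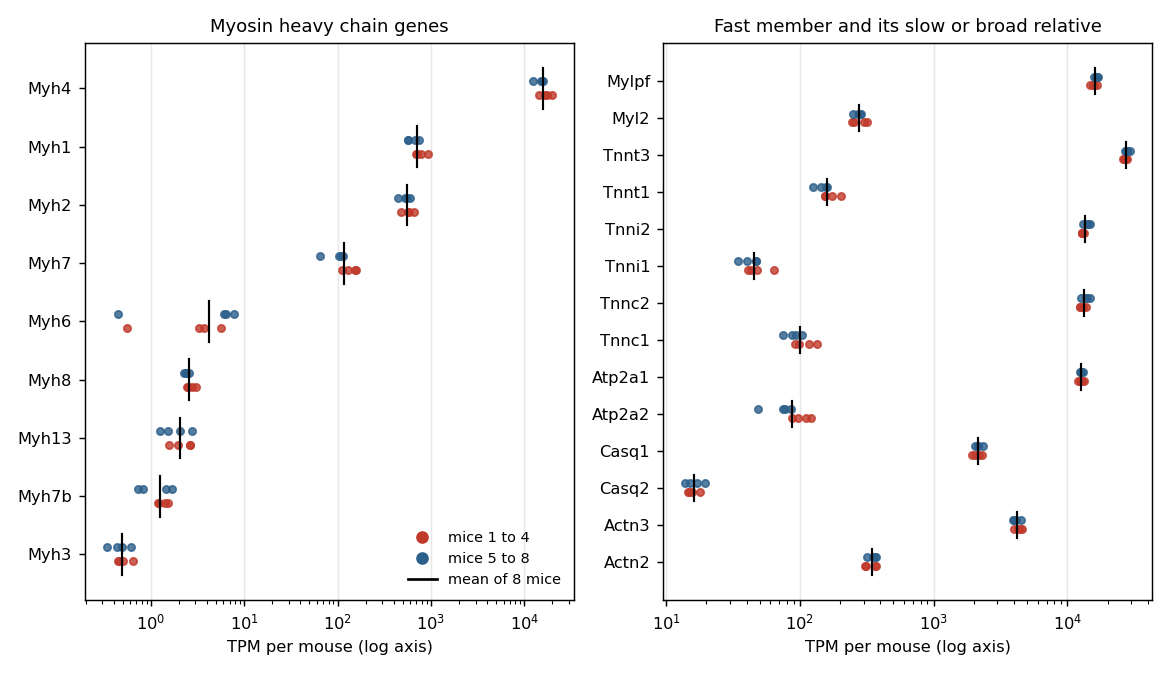
TPM on a log axis, 1 point per mouse, for the 9 myosin heavy chain genes (left) and for 7 fast genes each followed by a slow or broadly used relative (right); bars are means of 8 mice. Myh4 lies between 12377 and 19867 TPM with no overlap with the next gene, and each fast gene on the right lies clear of its relative.

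Actins, tropomyosins and Z-disc proteins were less uniform. Acta1 held 96.1% ± 0.63 of 6 actins; the cardiac actin Actc1 came next at 519 ± 127 TPM, from 382 TPM in mouse 1 to 749.6 TPM in mouse 3. The cytoplasmic actins Actb and Actg1 stood at 247 and 137 TPM. Tpm1 held 82.5% ± 1.06 of the tropomyosins and Tpm2, the beta chain, 16.7% ± 1.06, while the slow Tpm3 stood at 152 ± 29.3 TPM. At the Z-disc, which ties thin filaments of neighbouring sarcomeres together, Actn3 stood 12.3 ± 1.07 times as high as Actn2, the alpha-actinin of all fibre types. The calsarcin Myoz1 held 91.2% ± 0.53 of its family, and Myoz2 and Myoz3 could not be ordered, since Myoz2 was higher in 5 of 8 mice. Mybpc2, the fast myosin-binding protein C, held 80.1% ± 1.77 and the slow Mybpc1 15.1% ± 1.04, whereas the cardiac Mybpc3 stood at 0.0025 TPM. The ratio of Mybpc2 to Mybpc1 was 5.33 ± 0.46, far below that of the troponins.

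The calcium pump was almost wholly of the fast type, and 1 member led each of the other calcium store families. Atp2a1 held 99.3% ± 0.18 of 3 SERCA pumps, and stood 155 ± 48.2 times as high as Atp2a2, the pump of slow and cardiac muscle. Atp2a2 had values of 86.9, 111, 121, 97.2, 85.8, 77.1, 74.7 and 48.3 TPM in mice 1 to 8, lowest in mouse 8 and with all of mice 1 to 4 above all of mice 5 to 8. Of the small membrane peptides that inhibit the pump, Mrln (myoregulin) stood at 66.5 ± 5.79 TPM, while phospholamban (Pln) stood at 2.18 ± 0.74 and sarcolipin (Sln) at 0.61 ± 0.39 TPM. Casq1, which stores calcium in the fibre, held 99.3% ± 0.069 of the calsequestrins. The release channel Ryr1 stood at 471 ± 91.4 TPM, with Ryr3 and Ryr2 at 0.42 and 0.10 TPM.

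For glucose and glycogen use, a single member held over 90% of each family in the lists. Aldoa, the phosphorylase Pygm at 3863 ± 201 TPM, the phosphoglycerate mutase Pgam2 at 2154 ± 137 TPM and the phosphofructokinase Pfkm at 1726 ± 149.6 TPM each held more than 99% of theirs. Pklr, the liver pyruvate kinase, and Fbp1, the liver fructose bisphosphatase, were listed at 0 in all 8 mice, beside Pkm at 1690.4 ± 86.6 TPM and Fbp2 at 38.1 ± 4.41 TPM. Eno3, the muscle enolase, stood at 4712 ± 175 TPM against 63.7 TPM of Eno1. Ldha, which favours lactate formation, stood 12.5 ± 0.63 times as high as Ldhb. The lactate exporter Slc16a3 stood 10.8 ± 1.56 times as high as Slc16a1. Glucose entry and its first step rested on Slc2a4, the insulin-responsive transporter, at 240.5 ± 17.6 TPM and Hk2 at 137 ± 8.35 TPM. The phosphorylase kinase subunit Phkg1, at 413 ± 25.9 TPM, shares its strand and position with Chchd2, listed at 254 TPM, so its level is uncertain.

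Phosphate transfer rested on Ckm, which held 97.1% ± 0.19 of the creatine kinases. The mitochondrial Ckmt2 stood at 695 ± 51.5 TPM and the brain form Ckb at 3.11 ± 0.57 TPM. Ampd1, which removes AMP during hard work, stood at 907 ± 86.01 TPM and the adenylate kinase Ak1 at 917 ± 24.5 TPM. Car3, the muscle carbonic anhydrase, stood at 2053 ± 256 TPM and held 98.4% ± 0.35 of 4 family members.

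In mitochondria and fat oxidation, several families were shared between members. Cox7a1 and Cox7a2, the muscle and the ubiquitous form of a cytochrome oxidase subunit, stood at 262 ± 25.4 and 237 ± 9.76 TPM, and Cox7a1 was the higher in 7 of 8 mice, all except mouse 4. The sister subunits were not shared in this way, since the muscle forms Cox6a2 and Cox8b held 96.7% ± 0.42 and 92.1% ± 0.48. Pdk4 and Pdk2, kinases that switch off pyruvate entry into mitochondria, gave the share that varied most between mice among the 42 families, with Pdk4 at 65.6% ± 8.96. Pdk2 hardly varied, from 233 to 259.8 TPM. Pdk4 had 256, 395, 732, 672, 668, 501, 806 and 522 TPM in mice 1 to 8, and in mouse 1 it lay just below Pdk2. Fabp3, the fatty acid carrier of muscle, held 70.7% ± 2.98, and Fabp4, a carrier of adipocytes and endothelium, 28.4% ± 2.89. Cpt1b, which admits long-chain fatty acids to the mitochondrion, stood at 130.4 ± 11.7 TPM against 5.54 TPM for Cpt1a. Slc25a4, the ADP/ATP carrier of muscle, stood at 1742 ± 60.6 TPM.

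In 2 families of the translation machinery the muscle form again lay above the ubiquitous form. Eef1a2, the elongation factor 1 alpha of muscle and neurons, stood 2.81 ± 0.13 times as high as the ubiquitous Eef1a1, at 894 ± 34.2 TPM. Rpl3l, a striated-muscle form of a ribosomal protein, stood 8.92 ± 0.82 times as high as Rpl3, which has pseudogenes and is therefore less certain. Over all 42 families, with 137 genes, the first member held over 90% in 35 families and over 99% in 14 of these. In 7 families it held 50 to 90%, namely Rpl3l, Tpm1, Mybpc2, Eef1a2, Fabp3, Pdk4 and Cox7a1. The ranges of the first and second member overlapped in 2 families, those of Pdk4 and Cox7a1. Lower in the order, 11 more pairs of neighbours above 1 TPM overlapped.

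**Figure D3:**
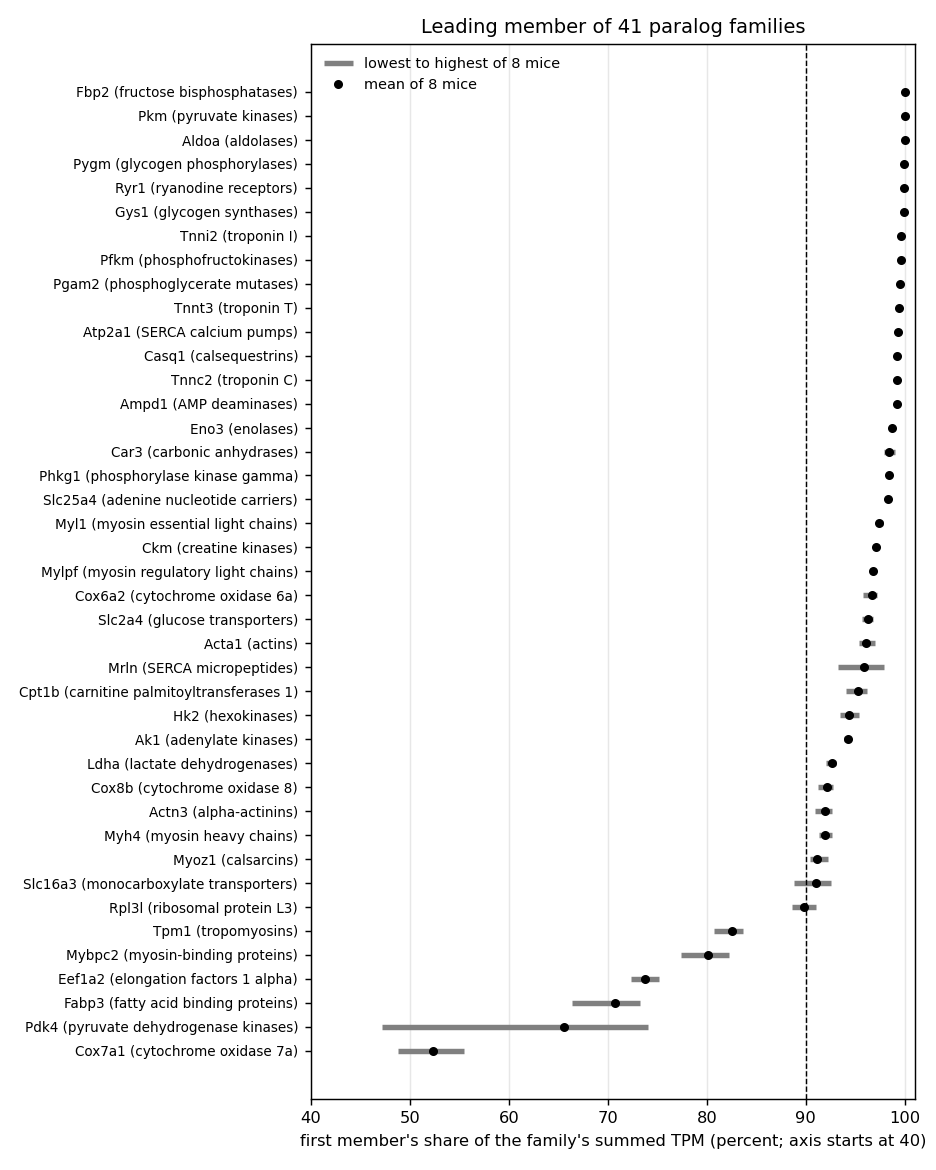
Share of the first member in the summed TPM of its family, in percent, for 41 of the 42 families; points are means of 8 mice, grey lines run from the lowest to the highest mouse, the dashed line marks 90% and the axis starts at 40. The first member lies right of the dashed line in 34 of those drawn, and the widest line belongs to Pdk4.

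Regulators of muscle identity were present at far lower levels than the contractile genes. Of the 4 myogenic factors, Myf6, the one that stays on in mature fibres, stood at 78.3 ± 6.35 TPM, with Myod1 at 8.35 ± 1.40, Myog at 2.84 ± 0.74 and Myf5 at 1.02 ± 0.16 TPM. The fibre-type list of 20 genes was led by Mef2c at 331 ± 15.4 TPM and Tbx15, a T-box factor of glycolytic fibres, at 115 ± 8.01 TPM. The large Maf factors Maf and Mafa, which act in type IIb fibres, stood at 79.1 and 28.5 TPM. Sox6, a repressor of slow genes, stood at 54.3 ± 12.04 TPM. Prox1, a factor of slow fibres, stood at 0.56 ± 0.11 TPM. Ppargc1a, a coactivator of oxidative genes, stood at 22.6 ± 5.08 TPM and its nuclear receptor partner Esrra at 40.3 ± 1.81 TPM.

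Markers of other cells were low beside the fibre genes but clearly present. The slow-fibre list of 10 genes summed to 1065 to 1622 TPM. Connective tissue gave Dcn (decorin) at 336 ± 47.5 TPM, Gsn at 412 ± 73.3 TPM and Pdgfra, the receptor that marks fibro-adipogenic progenitors, at 7.54 ± 1.40 TPM, and all 8 genes of that list were above 1 TPM in every mouse. Gsn is also expressed by other cells of the muscle. Vessels gave Pecam1 at 28.4 ± 4.46 and Cdh5 at 24.9 ± 3.78 TPM in the endothelium, and Rgs5, a pericyte gene, at 129 ± 13.8 TPM. The Schwann cell list of 7 genes, for nerve sheath, summed to 84.7 to 137 TPM with the highest sum in mouse 2, and its myelin gene Mbp stood at 21.5 ± 5.13 TPM, highest in mouse 5. The endplate gave Chrne, the receptor subunit of the adult synapse, at 10.7 ± 1.53 TPM, whereas the fetal subunit Chrng stood at 0.062 ± 0.067 TPM.

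Blood and immune cells differed widely. Red-cell globin mRNA was present in every mouse, with Hbb-bs at 162 ± 22.02 and Hba-a2 at 139.7 ± 25.3 TPM, well below the muscle oxygen store Mb at 1922 ± 89.6 TPM; the alpha-globin genes are near-identical copies. Resident macrophages gave C1qa at 11.3 ± 1.60 and Mrc1 at 4.57 ± 0.98 TPM. The 4 neutrophil markers summed to 0 to 1.05 TPM and the 7 lymphocyte markers to 0.89 to 1.88 TPM, most of it Ptprc (CD45, shared by all white cells) at 1.005 ± 0.24 TPM, with Cd3g listed at 0 in all mice. The adipocyte list was carried by Cfd at 35.9 ± 7.44 TPM, with Adipoq at 6.005 ± 1.44 TPM and the brown-fat gene Ucp1 at 0. Pax7, which defines satellite cells, stood at 0.59 ± 0.17 TPM, while the satellite cell list of 6 genes summed to 20.55 to 31.61 TPM. Of these 6 genes, 3 had at least 1 TPM in every mouse. Of 4 skin keratins, Krt10 stood at 1.40 to 2.58 TPM. The other skin keratins, Krt5, Krt14 and Krt1, and the liver genes Apoa1 and Ttr were listed at 0 in all 8 mice, and Alb stood at 0.11 TPM.

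**Figure D4:**
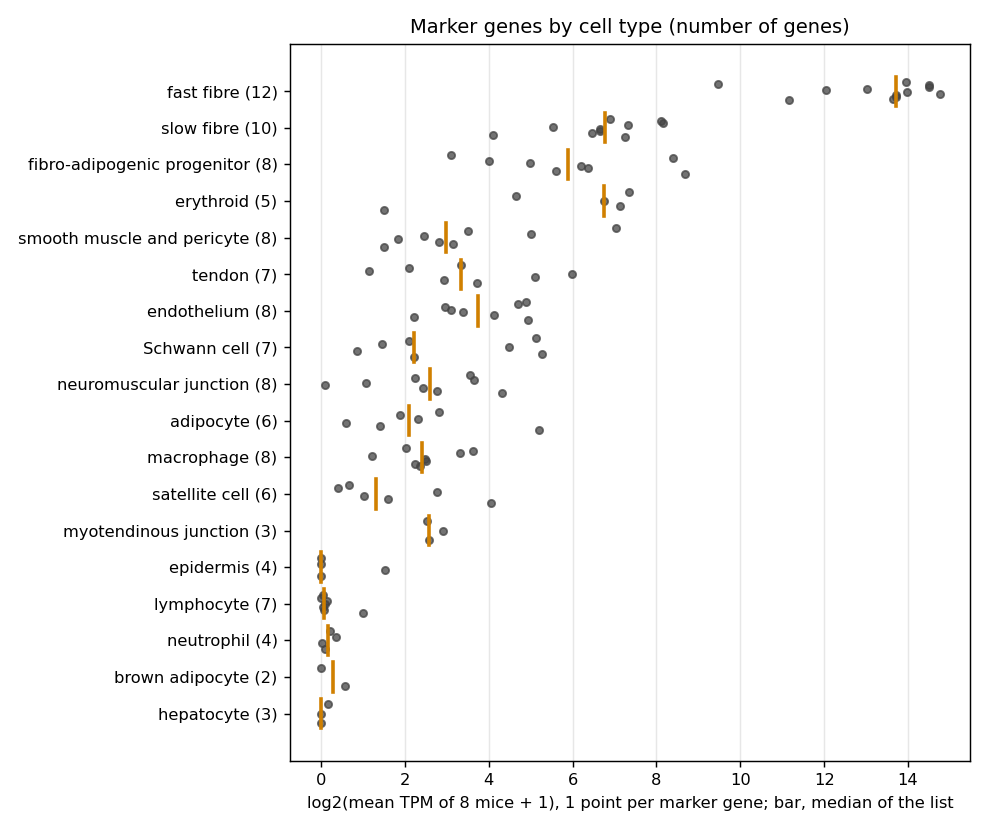
Level of each marker gene as log2 of its mean TPM over 8 mice plus 1, 1 point per gene, for 18 cell-type lists with the number of genes in parentheses; orange bars are list medians. By list median, fast-fibre genes lie farthest to the right, slow-fibre and erythroid genes follow, and epidermis, lymphocyte, neutrophil, brown adipocyte and hepatocyte markers lie near 0.

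The spread between mice was small and depended on level. The coefficient of variation, SD over mean, had a median of 10.2% over the 7614 genes with a mean of at least 5 TPM, with quartiles of 7.24% and 14.1%. It was 19.6% for genes of 1 to 5 TPM, 13.0% at 5 to 10, 9.43% at 10 to 100, 6.55% at 100 to 1000 and 6.22% at 1000 TPM or above. The fast-fibre list had a median of 5.91%, although Myh4 varied by 13.95%, and the slow-fibre list one of 16.4%. The most even genes were Hoxc10, a homeobox gene of the hindlimb, with 1.55% and a range of 57.5 to 59.8 TPM, followed by Pex2, Arl1, Ecsit and Cops7a, each below 1.9%. At the other end stood 5 short RNA genes, Snord53, Mir2861, Mir677, Scarna17 and Mir29c, each listed at 0 in at least 1 mouse; Snord53 had 0, 0, 0, 0, 0, 0, 60.2 and 0 TPM. Snord53 lies in Wdr43, Mir677 in Atp5b and Mir2861 in Cdk9 on the same strand, so reads of the hosts and of these genes cannot be told apart. The most variable coding genes were Nmrk2, Pfkfb3, Kera, Csrp3 and Angptl7, with coefficients of 68.3% down to 60.7%.

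The first principal component of log2(TPM + 1) took 30.5% of the variance, the second 17.5% and the third 15.4%. Mouse 8 lay at 20.8 on the first component, mice 6 and 7 at 3.95 and 5.44, and mice 1 to 5 between -10.9 and -1.15. Rn7s2, Odf3l2, Csrp3, Ddit4 and Fkbp5 had the largest positive loadings, and Mir2861, Fmod, Kera, Pfkfb3 and Tnmd the largest negative ones. Csrp3, a stretch-associated protein of the Z-disc that is more typical of slow fibres, was 207 TPM in mouse 8 and 36.9 to 82.8 TPM in the others. Mouse 8 also had the lowest Myh7, Atp2a2 and Tnni1, at 65.6, 48.3 and 34.3 TPM, and the lowest Myh4, Mybpc2 and Actn3. Other fast genes went the other way. The same mouse had the highest Tnnt3 (29493 TPM), Tpm1, Myl1, Mylpf, Tnni2, Tnnc2 and Pvalb (9177 TPM). It also had the lowest values of the very long transcripts Ttn, Neb and Ryr1, described below. The part of transcript length in these differences was not tested. Nmrk2, a muscle NAD-salvage kinase that overlaps an antisense gene, was 146 TPM in mouse 3 and 27.4 to 74.5 TPM in the others.

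Tendon genes separated mice 1 to 5 from mice 6 to 8. Of the 7 tendon genes, 6 were lower in all of mice 6 to 8 than in any other mouse. Of the 5 with a mean of at least 5 TPM, 5 had this order, against 6.95% of the 7614 genes at that level. Fmod, a collagen-binding proteoglycan of tendon, had 107, 66.1, 97.02, 93.6, 68.3, 22.2, 20.1 and 20.5 TPM in mice 1 to 8. Tnmd, tenomodulin of tendon cells, had 13.5, 10.47, 16.8, 11.9, 10.9, 3.04, 3.63 and 2.85 TPM, and Chad, Comp, Thbs4 and Mkx had the same order. Scx, the transcription factor that defines tendon cells, overlapped between these mice, at 2.35 to 4.45 TPM. Col1a1 followed with 102, 89.3, 123, 69.6, 82.2, 30.02, 49.01 and 34.2 TPM, but Col3a1 did not, since mouse 7 had its highest value of 111 TPM. The tendon list had a median coefficient of variation of 54.4%, against 10.2% over all genes. The 7 tendon markers, none at 0 in any mouse, summed to 53.98 to 204 TPM in a mouse, and the part of tendon tissue in these differences was not tested.

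The rRNA gene separated the mice differently, between mice 4 and 5. Lars2, a mitochondrial leucyl-tRNA synthetase, and Mir6236 were also higher in mice 1 to 4, at 106 to 131 TPM against 42.8 to 62.8 TPM for Lars2. Large ratios of means between these sets were also those of Kera (3.35), Pfkfb3 (2.52), Mfap4 (2.18), Cpxm2 (2.06), Col1a2 (2.01), Ddr2 (1.83) and Fndc1 (1.78). Kera, Mfap4 and Col1a2 encode matrix proteins and Ddr2 a collagen receptor, so some matrix genes, named for their large ratios, followed this division. None of the 5 tendon genes with a mean of at least 5 TPM did, and Col1a1 and Col3a1 overlapped between the sets. In Kera, mouse 5 lay between the sets at 6.94 TPM, with 8.38 to 12.7 TPM in mice 1 to 4 and 2.02 to 2.58 TPM in mice 6 to 8. Of the 7614 genes, 417 (5.48%) did not overlap between mice 1 to 4 and mice 5 to 8, of which 346 (4.54%) were higher in mice 1 to 4 and 71 (0.932%) lower. Of the 200 members of the gene lists at this level, 8 (4%) were higher and 0 lower, a share close to that of all genes. These 8 were Atp2a2, Ak3, Maf, Tef, Pdgfra, Dcn, Gsn and Adipoq, with ratios of the means from 1.11 for Ak3 to 1.48 for Adipoq. Pdgfra, Dcn and Gsn belong to the fibro-adipogenic list of 8 genes, and only these 3 of its members separated the sets. The list sum was 1051 to 1206 TPM in mice 1 to 4 and 788 to 963 TPM in mice 5 to 8. Dcn and Gsn made up most of it, with means of 377 and 473 TPM in mice 1 to 4 and 295 and 350 TPM in mice 5 to 8. The sum therefore largely repeats these genes and is no separate result. The adipocyte sum was 55.92 to 60.8 TPM against 33.00 to 55.84 TPM, so these sets barely cleared each other. The part of these cells in the division was not tested. The share of the 10 most abundant entries, counted anew in each set, was 34.99% in mice 1 to 4 and 35.8% in mice 5 to 8.

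Mice 1 and 2 were lower than the other 6 in most stress- and hormone-responsive genes. Of the 11 list members, 8 were lower in both than in any other mouse. Of the 8 members with a mean of at least 5 TPM, 7 had this order, against 3.22% of the 7614 genes at that level. The division was chosen after the values were seen. Ddit4, an inhibitor of mTORC1 signalling, had 6.71, 20.02, 98.4, 108, 82.8, 59.4, 91.99 and 67.01 TPM in mice 1 to 8. Fkbp5, a glucocorticoid target, had 10.7, 11.3, 37.5, 50.8, 41.8, 37.4, 40.3 and 42.3 TPM. The metallothionein Mt1 had 10.8 and 10.1 TPM in mice 1 and 2 and 22.3 to 36.5 TPM in the others. Trim63, a ubiquitin ligase of muscle atrophy, was also lowest in these mice, at 102 and 162 TPM against 202 to 367 TPM, as were Mt2, Cdkn1a, Ucp3 and Angptl4. Fbxo32, the other atrophy ligase, was not, with 96.0 TPM in mouse 2. The heat shock genes Hspa1a and Hspa1b, near-identical copies whose division of reads is uncertain, went the other way in mouse 2, with their highest values of 6.70 and 7.09 TPM there, and 3.36 and 2.58 TPM in mouse 1. Odf3l2, which was no list member but was named by its loading, had 5.16 and 5.21 TPM against 24.5 to 38.2 TPM. The list of 11 had a median coefficient of variation of 37.4% in 8 mice and 17.8% in mice 3 to 8.

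The opposite order was seen in part of the immediate early and clock genes. Of 11 immediate early genes, 6 were higher in both mice 1 and 2 than in any other mouse, as were 7 of 16 clock genes. This order was held by 7.55% of the 7614 genes with a mean of at least 5 TPM. Among list members at that level, 1 of 3 immediate early genes (Btg2) and 7 of 14 clock genes had it. Most of the 6 immediate early genes thus lie below the level of that share. Fos had 12.2, 8.49, 1.67, 1.38, 1.29, 0.98, 2.04 and 3.31 TPM and Egr1 14.6, 8.61, 1.46, 1.55, 1.65, 1.29, 1.91 and 2.07 TPM in mice 1 to 8. Junb, Ier2, Btg2 and Fosb were also highest in mice 1 and 2, whereas Jun, Atf3 and Egr2 were not. Nr4a1 and Ier3 were lowest in mouse 1, at 76.4 and 3.48 TPM. Among the clock genes, which cycle over the day, Nr1d1 had 31.4 and 28.8 TPM in mice 1 and 2 and 15.5 to 20.03 TPM in the others. Dbp, Bhlhe40, Bhlhe41, Nr1d2, Per3 and Tef had their highest values in the same mice. Per1 and Ciart were lowest in mouse 1, at 11.1 and 3.79 TPM, and Arntl, the activator of the loop, did not have its lowest values in these mice as a pair. The labels state no time of day for the sampling.

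**Figure D5:**
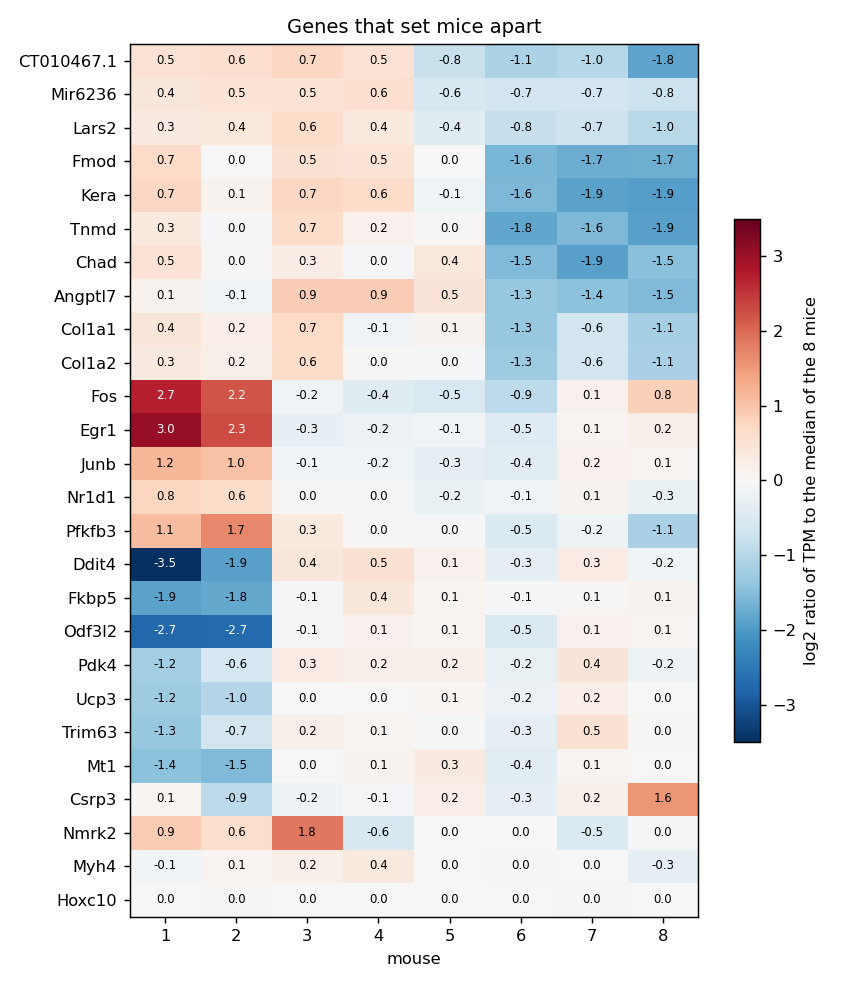
Log2 ratio of TPM to the median of the 8 mice for 26 genes (rows) in each mouse (columns), red above and blue below the median, with the value in each cell. The rRNA gene divides mice 1 to 4 from 5 to 8, tendon genes divide mice 1 to 5 from 6 to 8, Fos and Egr1 are high and Ddit4, Fkbp5 and Odf3l2 low in mice 1 and 2, and Hoxc10 is even.

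Across the 8 mice, 8 pairs of genes were correlated on log2(TPM + 1), with two-sided exact permutation tests over all pairings and Benjamini-Hochberg adjustment over the 8 pairs. Fos and Egr1 varied together, with r = 0.973 (exact permutation p = 0.000174, adjusted 0.00139) and rho = 0.905 (exact permutation p = 0.00456, adjusted 0.0365). Without mice 1 and 2, the farthest from the median of Fos, r was 0.885 (exact permutation p = 0.0153, n = 6). The other 7 pairs did not pass the adjusted threshold of 0.05. The fat-cell genes Adipoq and Plin1 gave r = 0.808 (exact permutation p = 0.0153, adjusted 0.0611) and rho = 0.667, and r fell to 0.288 without mice 7 and 8. The slow genes Myh7 and Tnni1 gave r = 0.776 (exact permutation p = 0.0376, adjusted 0.0789) and rho = 0.762, and 0.194 without mice 3 and 8. Myh4 gave r = 0.730 with Myh2 and 0.629 with Myh1 (adjusted exact permutation p = 0.0789 and 0.118), which became -0.151 and 0.429 without mice 4 and 8. Arntl and Dbp, whose products act at opposite phases of the clock, gave r = -0.707 (adjusted exact permutation p = 0.0903), Col1a1 and Col3a1 0.518 (adjusted exact permutation p = 0.214) and Pvalb and Actn3 -0.241 (adjusted exact permutation p = 0.546). After the means of mice 1 to 4 and of mice 5 to 8 were removed, with 576 pairings within the sets, Fos and Egr1 gave r = 0.964 (exact permutation p = 0.00347, adjusted 0.0278). The other pairs then gave 0.745 for Myh7 and Tnni1, 0.731 for Myh4 and Myh2, 0.6001 for Adipoq and Plin1, 0.433 for Col1a1 and Col3a1, 0.4002 for Myh4 and Myh1, -0.114 for Pvalb and Actn3 and -0.558 for Arntl and Dbp, with adjusted exact permutation p from 0.0903 to 0.769.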

How the data were processed

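Frozen gastrocnemius gave RNA through TRIzol and a spin column, and the library kit selected polyadenylated transcripts, per the labels' protocols. The authors deposited TPM, 1 table of 55487 Ensembl genes per library. The tools FastQC, STAR, RSEM and DESeq2 and the build GRCm38.p6 are named, per the submitters' processing notes; how each was applied, the versions and the annotation release are not given in the sources used here. TPM have a fixed total, so the depth is unknown and no counting interval can be given.

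From the 8 uncasted libraries, levels, shares within paralog families, summed levels of marker lists, coefficients of variation (mean TPM of at least 5) and principal components of log2(TPM + 1), centred by gene, were computed (Python 3.11.15, numpy 2.4.6, scipy 1.17.1, pandas 2.3.3). Neighbouring levels were compared by whether their ranges overlapped and in how many mice the first was higher. The only tests were exact permutation tests of 8 gene pairs over 40320 pairings, repeated over 576 pairings within mice 1 to 4 and 5 to 8 after the means of these sets were removed. The smallest p they can give is about 4.96e-05. The script was tested on simulated data. Symbols and coordinates came from GENCODE M21 on the same build, GRCm38, for 55227 identifiers. Transcripts of nuclear genes with at least 90% identity to a mitochondrial gene over at least 80% of the length (blastn 2.17.0) were called near-copies. Aldoa and Myl12b each have 2 identifiers, and the older was used. Promoter sequences are RefSeq's on GRCm38.p6.

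The group described and the lists (310 genes) were chosen with earlier results of these data known, although the rule that takes the 8 members uses their label alone. The named genes are the 20 of highest mean, the list members, the 10 of highest and 5 of lowest coefficient of variation and the 5 of largest loading in each direction on the first component. The genes of the printed sequences, the ratios between paralogs, the rRNA gene, Lars2, Mir6236, Col1a2 and the divisions into mice 1 to 4 and 5 to 8, 1 and 2, and 6 to 8 were chosen after their values were seen. Alternatives were other filters, pseudocounts, scaling of TPM by trimmed means of log ratios (30% of ratios and 5% of levels trimmed at each end) and leaving out each mouse. Some genes are counted but not reported by name here.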

Additional observations from a re-analysis of the deposited data

Results flagged for a closer look

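A mouse was called far from the others when its gap to the nearest value was larger, as a part of the group's range, than Dixon's 95% limit for 8 values. Of 257 values examined, 10 (3.89%) passed, where chance alone flags about 1 in 20, so single entries are descriptions. Mouse 7 had the highest Slc2a4 (277.95 TPM, next 246 TPM), Cox6a1 (26.34 TPM, next 19.8 TPM) and Vgll2 (28.1 TPM, next 22.3 TPM), and the lowest share of Cox6a2 in its family (95.7%, next 96.7%), which uses the same Cox6a1 value. Mouse 8 had the lowest Sox6 (27.7 TPM, next 48.1 TPM) and Ppara (3.27 TPM, next 5.57 TPM). Mouse 3 had the highest Tnni1 (63.73 TPM, next 47.7 TPM) and the lowest mt-Atp6 (3150.35 TPM, next 3755 TPM), a gene whose reads are shared with an identical pseudogene. Mouse 1 had the lowest Nr4a1 (76.4 TPM, next 105 TPM). Mouse 5 had the lowest Chrne (7.03 TPM, next 10.7 TPM).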

How the results depend on the processing

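All values rest on shares of a fixed total in 8 mice of 1 group, the depth is unknown, and low genes and short genes are the least certain. No paired analysis was possible because only 1 group was described. The alternatives on mice 1 to 4, 5 to 8 and 3 to 8, removal of set means included, were chosen after seeing the data.

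The shares of the total were a matter of what the total holds. The 10 and 100 highest genes held 29.9% and 50.8% without mitochondrial genes and near-copies, and 34.0% and 63.5% among protein-coding genes only. The mitochondrial share was 26.3% among protein-coding genes only, since most of the near-copies drop out there. These 3 shares were 34.99%, 68.8% and 38.9% in mice 1 to 4 and 35.8%, 69.2% and 39.8% in mice 5 to 8. The number of genes detected ranged from 10995 to 16370 over the thresholds tried.

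The median coefficient of variation was 9.53% on scaled TPM, 13.0% with a minimum mean of 1 TPM, 6.87% with one of 50 TPM and 35.8% with no filter. It was 7.81% in mice 1 to 4, 10.2% in mice 5 to 8 and 10.1% in mice 3 to 8. The first component took 29.9% on scaled TPM, 28.0% with a pseudocount of 0.1, 25.1% with a minimum of 1 TPM, 52.7% with one of 50 TPM and 21.7% with no filter.

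The correlation of Pvalb and Actn3 changed sign, to 0.303, on scaled TPM. That of Adipoq and Plin1 passed the threshold with a pseudocount of 0.1 (r = 0.828, adjusted exact permutation p = 0.0413). Without 1 mouse at a time, r ranged from 0.717 to 0.861 for Adipoq and Plin1 (adjusted exact permutation p from 0.0238 to 0.250), -0.834 to -0.620 for Arntl and Dbp, 0.475 to 0.905 for Myh4 and Myh2, 0.619 to 0.853 for Myh7 and Tnni1, and -0.706 to 0.202 for Pvalb and Actn3. The threshold was passed without mouse 4 or 5 for Adipoq and Plin1, without mouse 4 for Arntl and Dbp and for Myh7 and Tnni1, and without mouse 2 for Myh4 and Myh2; the sign for Pvalb and Actn3 changed without mouse 8. The causes were not tested. Fos and Egr1 passed on scaled TPM, with a pseudocount of 0.1, after removal of set means and without any 1 mouse (r from 0.9501 to 0.992). Without both mice 1 and 2, r stayed high but no adjusted p was computed, so that alternative was not held to the threshold. Without 1 mouse at a time, 35 to 36 of the 42 first members held over 90% of their family, the largest move of a share was 2.63 percentage points, for Pdk4, and the largest move among the 13 marker sums of at least 5 TPM was 8.54%, for tendon.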

Other observations

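Some genes outside the lists, chosen after their values were seen, followed mice 1 and 2. Arrdc2 had 19.4, 55.1, 114, 113, 91.2, 98.6, 141 and 113 TPM in mice 1 to 8. Foxo1, a factor that drives atrophy genes, had 4.29 and 4.77 TPM in mice 1 and 2 and 11.3 to 16.1 TPM in the others. Cebpb, a factor of hormone and stress responses, had 17.8 and 29.4 TPM in these mice and 41.2 to 60.6 TPM in the others. Mstn, the secreted inhibitor of muscle growth, varied little, at 45.9 to 58.97 TPM.

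The levels of a few very long transcripts, also chosen after their values were seen, were lowest in mouse 8. Ttn, the molecular spring of the sarcomere, stood at 358 ± 65.6 TPM and Neb, the ruler of the thin filament, at 2345 ± 410.5 TPM, with the lowest value of both in mouse 8 (239 and 1699.5 TPM). Ryr1, also a very long transcript, had 497, 529, 523, 571, 505, 418, 443 and 279 TPM in mice 1 to 8, again lowest in mouse 8. The coefficients of variation were 18.3% for Ttn, 17.5% for Neb and 19.4% for Ryr1, against a median of 6.22% for genes of at least 1000 TPM and 6.55% for genes of 100 to 1000 TPM.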
